A study of Mus musculus with 12 samples.

Results

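Solute carriers are the largest group of membrane transporters, and each gene symbol gives the family (Slc38) and the member (Slc38a4). The 148 genes described here are the rows of the liver table whose symbol has this form, without the bile acid importer Slc10a1, the mitochondrial Slc25 family and the fatty acid Slc27 family. They were 148 of 190 rows with such a symbol and 148 of the 11791 genes in the table. They belong to 42 families, which were put into 8 classes by the substrate each family is best known for. The classes were amino acids and amines (30 genes), metals and heme (27), organic ions, bile acids and peptides (26), carboxylates and sulfate (16), inorganic ions (16), sugars and sugar phosphates (14), vitamins, choline, nucleosides and acetyl-CoA (14) and nucleotide sugars (5).

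RNA came from whole liver of male mice with the strain label C57BL/6, aged 10 weeks, and all groups received the MCD (methionine- and choline-deficient) diet for 3 weeks. No group on another diet was analysed here. All mice also carried Lyzs-Cre, a recombinase driven by the lysozyme 2 locus in myeloid cells. The control group carried Lyzs-Cre alone. The KO group carried Lyzs-Cre and a deletion of the kinases p38γ and p38δ (labelled p38g/d). In the anti-Ly6G group, Lyzs-Cre mice were given antibody to Ly6G, a neutrophil surface protein, although its titles read GR1. Each group had 4 libraries, each a pool of RNA from 2 animals. The labels speak of 12 males per genotype, which these pools do not account for. Whether pools share animals is not stated. The p-values reflect variation from pool to pool and treat the pools as independent. A label on the origin of the mitochondria reads C57 for every control pool and for the first 2 KO pools (1 and 2). For the other KO pools (3 and 4) and for every anti-Ly6G pool it reads NZB. No label value therefore holds both control and anti-Ly6G pools, and for that comparison the antibody and the mitochondria label cannot be told apart.

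Solute carriers move small molecules across membranes, by facilitated diffusion, exchange, or coupling to sodium or proton gradients. Hepatocytes carry separate sets on the sinusoidal membrane, which takes up amino acids, sugars, bile acids and drugs from blood, on the canalicular membrane, and on organelles. Several amino acid carriers belong to the ATF4 response to amino acid shortage, and zinc exporters to the MTF1 response to metals. In whole tissue, fewer cells of a type and less RNA per cell cannot be told apart, which applies to every level below.

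Upstream sequence was shown for 3 genes whose promoters hold the element of a known response or whose level differed in both comparisons with control. The windows are the 250 bases before the transcript start from RefSeq (GRCm38.p6), written 5′ to 3′ on the gene's strand, with motif matches in capitals. Slc7a11, the cystine importer, lies on the minus strand (chr3:50443614-50443863) and has 2 matches to the amino acid response element TGATGNAAN, 1 on each strand. Slc30a1, the zinc exporter of the plasma membrane, lies on the plus strand (chr1:191906531-191906780) and has 1 match to the core metal response element TGCNCNC, on the other strand. Slc20a1, a sodium-dependent phosphate importer, lies on the plus strand (chr2:129198523-129198772) and has 2 matches to the E-box CACGTG, the second followed directly by a TGCNCNC match that is not capitalised.
Slc7a11: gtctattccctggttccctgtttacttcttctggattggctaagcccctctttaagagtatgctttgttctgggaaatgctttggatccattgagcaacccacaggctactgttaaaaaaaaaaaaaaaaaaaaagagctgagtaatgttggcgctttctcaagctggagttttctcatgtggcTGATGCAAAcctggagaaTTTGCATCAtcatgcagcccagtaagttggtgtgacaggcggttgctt
Slc30a1: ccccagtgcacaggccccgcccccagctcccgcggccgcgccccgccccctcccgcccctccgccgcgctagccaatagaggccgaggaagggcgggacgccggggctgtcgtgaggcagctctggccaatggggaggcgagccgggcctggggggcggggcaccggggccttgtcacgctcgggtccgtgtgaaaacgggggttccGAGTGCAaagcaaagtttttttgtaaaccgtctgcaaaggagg
Slc20a1: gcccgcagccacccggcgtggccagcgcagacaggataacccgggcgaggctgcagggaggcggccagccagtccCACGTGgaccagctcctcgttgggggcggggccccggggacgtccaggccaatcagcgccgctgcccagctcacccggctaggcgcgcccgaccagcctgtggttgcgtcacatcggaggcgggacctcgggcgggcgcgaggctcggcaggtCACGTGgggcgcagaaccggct

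RefSeq windows, from 250 before to 50 after the start, were matched for 107 of the 148 genes and searched on both strands. TGATGNAAN occurred in 5.61% of the members' windows and in 3.95% of all 32851 windows. It occurred in 3 of 21 windows of amino acid and amine carriers, and in 0 of the 21 windows of carriers that were lower in anti-Ly6G. The antioxidant response element TGACNNNGC occurred in 22.4% of members' windows and 12.4% of all windows, TGCNCNC in 53.3% and 51%, and CACGTG in 15.9% and 7.15%. Among metal and heme carriers TGCNCNC occurred in 16 of 21 windows. These matches are a description of letters in the window.

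Levels are in RPM, reads per 1 M of a library size adjusted by TMM (trimmed mean of M values), and are given as mean ± SD with n = 4 pools. Depth was 13.1 to 22.3 M reads per pool, at which 3 reads correspond to 0.125 to 0.242 RPM. The mean levels of the 148 genes over all pools ran from 1.55 to 1140 RPM with a median of 17.5, and 3 of them (Slc16a3, Slc4a9 and Slc7a5) had a pool below 1 RPM. Together they took 0.861 to 0.891% of the signal in control pools, 0.836 to 0.897% in KO pools and 0.819 to 0.941% in anti-Ly6G pools. The median coefficient of variation between pools was 11.3% in control, 9.83% in KO pools and 14.9% in anti-Ly6G. The 5 hepatocyte marker genes were all measured, at a summed 103692 to 119559 RPM in control, 93002 to 121757 in KO and 96408 to 140186 with the antibody, and none was called in a comparison.

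Per kilobase of exon, carriers of amino acids were among the most abundant members. Slc38a4, a sodium-coupled neutral amino acid importer, stood at 283 ± 35.3 RPM per kilobase in control, 246 ± 10.5 in KO pools and 273 ± 16 in anti-Ly6G. Slc38a3, the glutamine carrier of hepatocytes, followed at 205 ± 16.8, 174 ± 20.5 and 228 ± 49.9. The cationic amino acid carrier Slc7a2 stood lower, at a mean of 87.7 RPM per kilobase over all pools. Slc38a4 and Slc38a3 overlapped in anti-Ly6G, so their order does not hold there. Below these came Slc6a13 (50.2), which carries GABA and taurine, the glucose-6-phosphate carrier Slc37a4 (48.9), the nucleoside carrier Slc29a1 (37) and Slc22a18 (36), an organic ion family member. Slc6a13 and Slc37a4 overlapped in level, as did Slc29a1 and Slc22a18. The median over the 148 genes was 3.67 RPM per kilobase, so a few importers stood far above the rest. Slc38a3, Slc38a4 and Slc22a18 were not called in either comparison with control (limma adjusted p from 0.269 to 0.823).

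**Figure D1:**
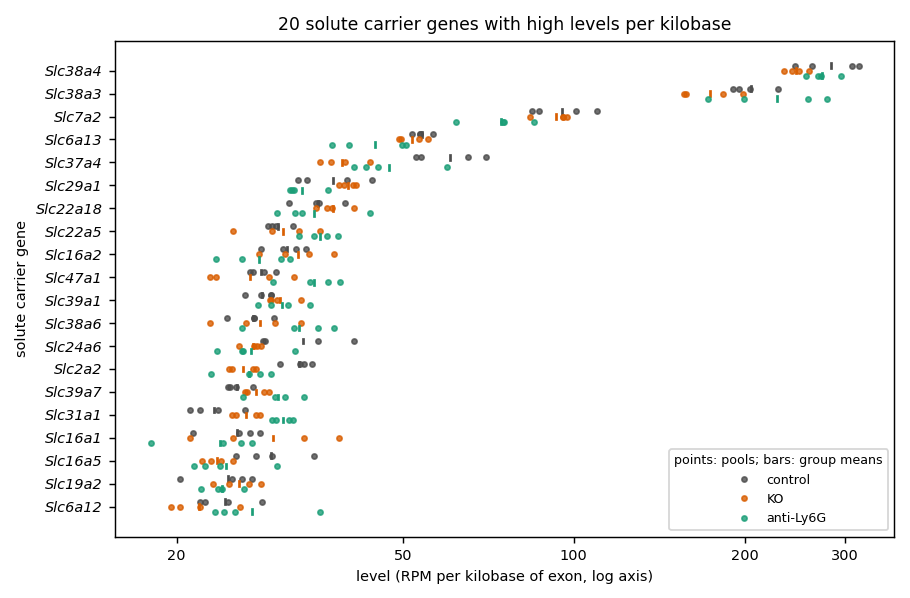
Levels of 20 solute carrier genes with high mean levels per kilobase (RPM per kilobase of exon, log axis; points are pools, coloured by group, and bars are group means). Slc38a4 and Slc38a3 stood above all others shown in every pool.

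The comparison of KO with control asks what the deletion of p38γ and p38δ in the myeloid lineage changed in the liver. The phosphate importer Slc20a1 and the glucose-6-phosphate carrier Slc37a4 fell, and the zinc importer Slc39a9 rose. These were 3 of 148 genes (2.03%) by limma at an adjusted p under 0.05, beside 1.12% of all genes in this comparison (0.585% higher and 0.534% lower). An unadjusted limma p under 0.05 was found for 27 of the 148 members and for 2227 of all 11791 genes. The median log2 fold change was 0.04 over the members and 0.00 over all genes, on the log2(RPM + 0.5) scale, on which low genes change by less than in RPM. No call held in every fit that left out 1 pool, and 5 of the 8 classes held no called gene. Over all genes those fits called from 3 (without control 2) to 319 (without control 4), beside 132 with every pool.

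Slc20a1 (chromosome 2, 129198764 to 129211616, plus strand), whose promoter window is printed above, stood at 153, 101, 104 and 86.3 RPM in control pools 1 to 4 and at 57.1, 59.9, 60.7 and 53.9 in KO. In anti-Ly6G it stood at 61.5, 73.5, 56.3 and 64.0. Every control pool lay above every pool of the other groups, with control 1 far above the rest. Against control, its log2 fold change in KO was -0.90 ± 0.14 (SE, limma adjusted p = 0.014), and in anti-Ly6G it was -0.77 ± 0.14 (limma adjusted p = 0.00153). The KO call ended without control 2 (-0.94, adjusted p = 0.0536) and with the C57-labelled KO pools alone (-0.88, adjusted p = 0.0593), and the anti-Ly6G call with the mitochondria label as a covariate (-0.73, adjusted p = 0.0834). Of its sequence, 88.7% of 25-base words occur in no other annotated gene, so some reads may be shared.

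Slc37a4 (chromosome 9, 44396852 to 44402968, plus strand) carries glucose-6-phosphate into the endoplasmic reticulum, where glucose is released. It stood at 186, 151, 200 and 154 RPM in control, 125, 107, 102 and 113 in KO and 129, 123, 117 and 171 with the antibody. KO pools all lay below control pools, and anti-Ly6G pool 4 lay within the control range. Against control, Slc37a4 changed by -0.62 ± 0.12 on the log2 scale in KO (limma adjusted p = 0.0345) and by -0.36 with the antibody (limma adjusted p = 0.0398). The KO call ended without any 1 pool other than control 4 (-0.55 to -0.68, adjusted p from 0.0523 without KO 1 to 0.107 without KO 3) and with the mitochondria label as a covariate (-0.57, adjusted p = 0.107). The anti-Ly6G call ended without anti-Ly6G 1 (-0.34), 2 (-0.32) or 3 (-0.30) and without control 1 (-0.32) or 3 (-0.29), and with the covariate (-0.26).

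Slc39a9 (chromosome 12, 80643883 to 80683342, plus strand), a zinc importer, stood at 48, 47.7, 49.0 and 51.8 RPM in control, 61.9, 54.7, 63.2 and 64.1 in KO pools and 76.9, 76.8, 77.8 and 72.1 in anti-Ly6G. The 3 groups did not overlap, with control lowest and anti-Ly6G highest. Against control, Slc39a9 changed by 0.31 ± 0.07 on the log2 scale in KO (limma adjusted p = 0.0415) and by 0.62 ± 0.07 with the antibody (limma adjusted p = 3.2e-05). The KO call ended without control 1 (0.30), 2 (0.29) or 3 (0.31) or KO 1 (0.30), 3 (0.29) or 4 (0.28), with control and KO alone in the fit (0.31, adjusted p = 0.056) and with the mitochondria label as a covariate (0.24, adjusted p = 0.151). The anti-Ly6G call held in every fit that left out 1 pool and with the covariate (0.49, adjusted p = 0.0182). Slc20a1, Slc37a4 and Slc39a9 were the only members called against control in both groups, and these comparisons share the control pools.

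The other genes named for the lowest p of their class in KO against control did not pass the test. Slc2a2, the glucose carrier GLUT2 of hepatocytes, stood at 175 to 199 RPM in control and 142 to 159 in KO (log2 fold change -0.33, limma adjusted p = 0.0608). It passed by DESeq2 on the recovered reads (adjusted p = 0.00712) and with control and KO alone in the limma fit (adjusted p = 0.0429). Slc43a1, a carrier of large neutral amino acids, had a log2 fold change of -0.70 (limma adjusted p = 0.128, DESeq2 0.0437). Slc43a3, a nucleobase carrier grouped with amino acids by its family number, had -0.33 (adjusted p = 0.153), and -0.54 with the mitochondria label as a covariate, which passed (adjusted p = 0.0354). The bile acid importer Slc10a2 (0.61), the organic anion carrier Slc17a3 (0.41) and the zinc importer Slc39a13 (0.27) had limma adjusted p of 0.123, 0.0974 and 0.0787. The potassium chloride cotransporter Slc12a7 (-0.29), the monocarboxylate family members Slc16a5 (-0.31) and Slc16a13 (0.47), the nucleotide sugar family members Slc35a4 (-0.18) and Slc35a2 (0.18), the acetyl-CoA carrier Slc33a1 (0.19) and the folate carrier Slc19a1 (-0.39) had adjusted p from 0.159 to 0.42.

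**Figure D2:**
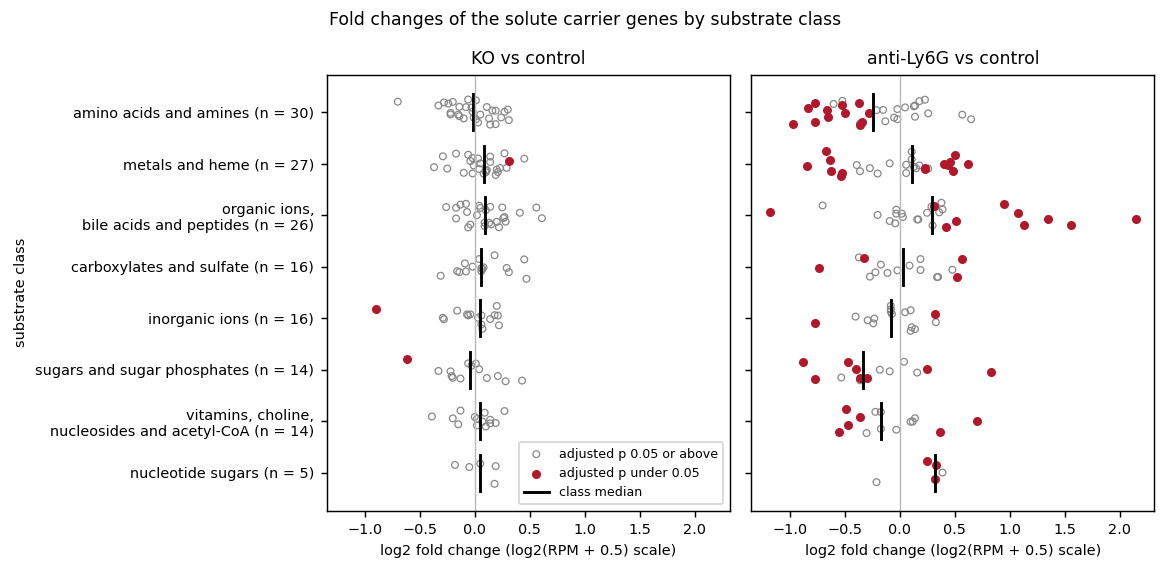
Log2 fold change of each of the 148 genes by substrate class in KO against control (left) and anti-Ly6G against control (right), on the log2(RPM + 0.5) scale. Filled points passed limma's test, bars are class medians, and the panels share the control pools. KO values ran from -0.90 to 0.61 with 3 filled points, and anti-Ly6G values from -1.18 to 2.15 with 59.

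The comparison of anti-Ly6G with control asks what the neutrophil-directed antibody changed. Of 26 carriers of organic ions, bile acids and peptides 9 rose, with the largest changes in the bile acid importer Slc10a2 and in Slc22a26, and of 30 carriers of amino acids and amines 12 fell. In all, 27 members rose and 32 fell, 59 of 148 (39.9%), beside 30.4% of all genes in this comparison (15.1% higher and 15.3% lower). The median log2 fold change was -0.02 over the members and 0.00 over all genes. Scaled to the plain library total, 52 were called, 18 higher and 34 lower, beside 27.5% of all genes. Of the 59 calls, 33 held in every fit that left out 1 control or anti-Ly6G pool, a count that was not made for all genes. The total without 1 pool was 44 to 56, beside 23.7 to 30.9% of all genes. A fit with the mitochondria label as a covariate, which only the KO pools inform, called 19 members, 16 of them among the 59. That fit called 8.25% of all genes.

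Among organic ion, bile acid and peptide carriers 9 of 26 rose (34.6%) and 1 fell (3.85%), with a class median of 0.29. Over all genes 15.1% rose and 15.3% fell. Slc10a2, the sodium-dependent bile acid importer of ileum and bile duct cells (chromosome 8, 5083219 to 5105351, minus strand), stood at 1.39, 2.10, 2.32 and 1.59 RPM in control. It stood at 2.66, 3.17, 3.33 and 3.01 in KO and at 9.23, 7.45, 15.1 and 8.81 in anti-Ly6G. The groups did not overlap, and the lowest anti-Ly6G pool stood above the highest KO pool. Its log2 fold change was 2.15 ± 0.19 in anti-Ly6G against control (limma adjusted p = 8.94e-06), and 2.04 with the mitochondria label as a covariate (adjusted p = 0.006). Of 5 bile duct markers, Krt19, Krt7 and Epcam were not in the table. The other 2 of 5, Sox9 and Spp1, both fell in anti-Ly6G, with summed levels of 40.9 to 62.9 RPM in control, 58.0 to 81.6 in KO and 25.9 to 37.6 with the antibody. The part of bile duct cells in the level of Slc10a2 was not tested. Slc10a1, the basolateral bile acid importer left out of the 148, stood at 476 RPM in control, 340 in KO pools and 368 in anti-Ly6G, and fell in both comparisons.

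Slc17a3 (chromosome 13, 23839434 to 23860716, plus strand) carries urate and other organic anions in humans. It stood at 11.5, 10.6, 9.98 and 9.91 RPM in control, 13.4, 16, 13.1 and 14.1 in KO and 28.9, 35, 22.5 and 25.1 with the antibody. Here too the 3 groups did not overlap, with KO between the others. The log2 fold change in anti-Ly6G was 1.35 ± 0.12 (limma adjusted p = 8.28e-06). Its neighbours Slc17a2 and Slc17a4 within 200 kb on chromosome 13 had 0.17 and 0.03 and were not called. The adjacent Slc17a1 had 0.42 (adjusted p = 0.0436), a call that ended without anti-Ly6G 2 (0.29) or 4 (0.38) or control 1 (0.41), 2 (0.38) or 4 (0.39). These 3 neighbours were chosen after their values were seen.

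Most of the other rises in this class were in Slc22, the organic cation and anion family. Slc22a3, the organic cation carrier OCT3, stood at 3.66, 5.61, 5.52 and 4.69 RPM in control, 6.28, 3.80, 6.45 and 6.65 in KO and 11.4, 14.6, 6.58 and 8.24 with the antibody. Its anti-Ly6G pools lay above control and its lowest overlapped KO (log2 fold change 0.95 against control, limma adjusted p = 0.00736).

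Slc22a30, Slc22a26 and Slc22a27 are relatives of the organic anion carriers on chromosome 19, with Slc22a26 at 7781041 to 7802667 and Slc22a27 at 7864388 to 7966027. Slc22a30 stood at 19, 18.1, 21.0 and 19.8 RPM in control, 25.4, 25.7, 23.2 and 20.7 in KO pools and 35.8, 53.7, 41.2 and 37.6 in anti-Ly6G. Slc22a26 stood at 3.09, 4.86, 7.25 and 2.05 in control, 3.98, 9.44, 3.41 and 2.39 in KO and 12.4, 7.65, 18.6 and 13.7 with the antibody. All 3 genes lay above control in every anti-Ly6G pool, with log2 fold changes of 1.08 ± 0.12, 1.56 ± 0.39 and 1.13 ± 0.30 (limma adjusted p = 3.92e-05, 0.00911 and 0.0122). Slc22a26 was spread widely within control and KO, where pools of 2 animals differed several-fold. Only 53.5%, 84.7% and 46.5% of their 25-base words are unique, and reads could have been split among these paralogs, so the level of each gene is uncertain. The Slco organic anion transporters, a family outside the rule, moved in mixed directions, with 3 of 7 higher (Slco1b2 0.78, Slco1a1 0.83, Slco1a6 0.62) and Slco2a1 lower (-1.53). Of 9 listed partners and traffickers of carriers, 6 were measured, of which 3 rose, 1 fell and 2 did not pass, with a median of 0.1. Among them Pdzk1, a scaffold that holds carriers at the membrane, rose from 35 to 70.2 RPM (log2 fold change 0.99, limma adjusted p = 1.16e-05).

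The 1 gene of this class that fell was Slc15a3 (chromosome 19, 10839727 to 10859362, plus strand), a lysosomal carrier of peptides and histidine found in macrophages and dendritic cells. It stood at 20.5, 26.4, 21.8 and 36.6 RPM in control, 27.5, 30.5, 25.5 and 28.8 in KO pools and 11.8, 9.43, 13.8 and 9.62 in anti-Ly6G. Anti-Ly6G pools all lay below the other groups, with a log2 fold change of -1.18 ± 0.16 against control (limma adjusted p = 0.000236), and 72.2% of its 25-base words are unique. In the metal class, Slc11a1 (chromosome 1, 74375195 to 74386062, plus strand), which pumps metals out of the phagosome of macrophages and neutrophils, fell by 0.84 ± 0.22 on the log2 scale (limma adjusted p = 0.0104). It stood at 12.9, 19, 19 and 27.8 RPM in control and at 16.1, 8.72, 10.1 and 8.16 in anti-Ly6G, so that anti-Ly6G pool 1 lay above control pool 1. Some macrophage and Kupffer cell markers also fell in anti-Ly6G. Of 10 listed, 9 were measured (Adgre1 was not in the table), of which 5 fell and 4 did not pass. The summed level of the 9 was 452 to 821 RPM in control, 667 to 889 in KO and 249 to 363 with the antibody. Of 11 neutrophil markers 4 were measured, without Ly6g, and 3 fell, with sums of 12.5 to 21.4, 17.4 to 20.9 and 6.3 to 10.7 RPM. Their part in the fall of Slc15a3 and Slc11a1 was not tested.

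**Figure D3:**
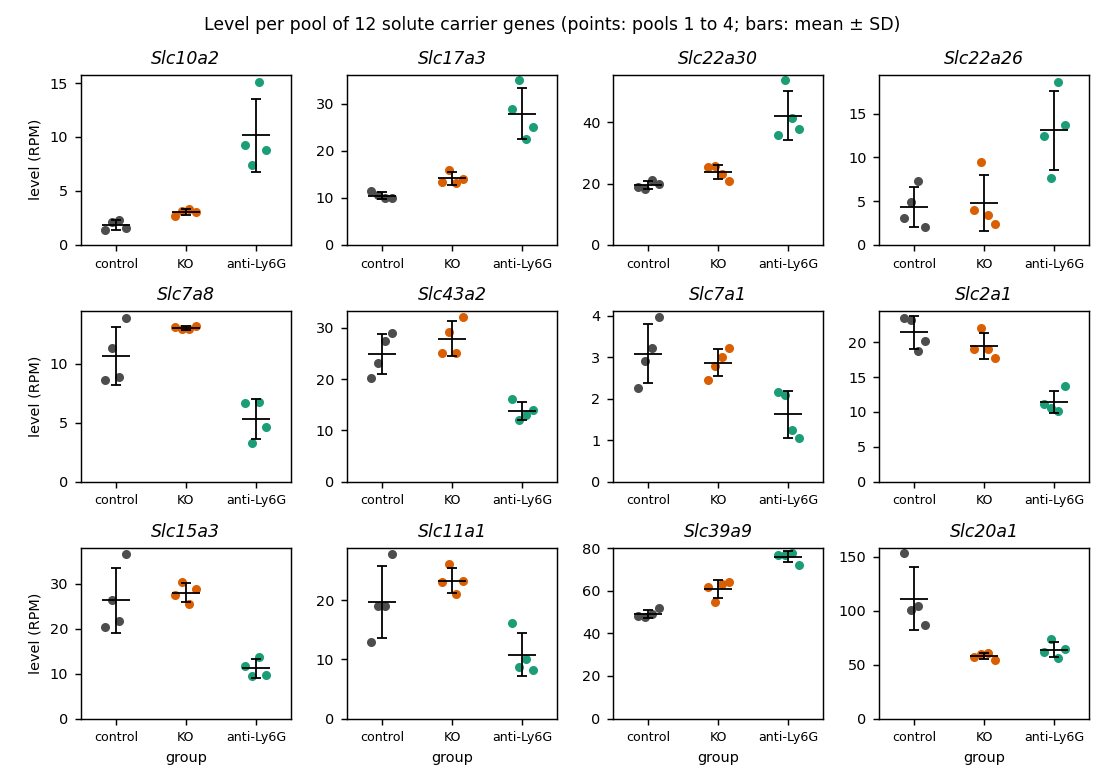
Level in each pool (RPM, axes from 0) of 12 solute carrier genes in control, KO and anti-Ly6G, with points for pools 1 to 4 from left to right and bars for the mean ± SD (n = 4). Slc10a2, Slc17a3 and Slc22a30 were highest in all anti-Ly6G pools, Slc7a8, Slc2a1 and Slc15a3 lowest there, and Slc20a1 was lower in both KO and anti-Ly6G than in control.

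Of the 30 carriers of amino acids and amines, 12 fell in anti-Ly6G (40%, beside 15.3% of all genes) and 0 rose (beside 15.1%). The class median was -0.25. The log2 fold changes of the fallen genes ran from -0.97 to -0.28. Among carriers of large neutral amino acids, Slc7a8, the exchanger LAT2 (chromosome 14, 54722209 to 54781946, minus strand), stood at 8.63, 11.3, 8.85 and 13.9 RPM in control, 13.1, 12.9, 12.9 and 13.2 in KO pools and 6.64, 3.24, 6.77 and 4.61 in anti-Ly6G. Slc43a2, the carrier LAT4 (chromosome 11, 75531694 to 75577575, plus strand), stood at 20.3, 23.2, 27.4 and 28.9 in control, 25.1, 29.2, 25.1 and 32.2 in KO and 16.2, 12, 13.1 and 13.9 with the antibody. For both genes every anti-Ly6G pool lay below every control and KO pool, with log2 fold changes against control of -0.97 ± 0.20 and -0.83 ± 0.13 (limma adjusted p = 0.00273 and 0.000463). Slc7a5, the exchanger LAT1, was low, at 2.05 to 3.30 RPM in control, 1.74 to 2.22 in KO pools and 0.948 to 1.67 in anti-Ly6G (-0.66, adjusted p = 0.0126). Slc43a1 stood at 19.9, 13, 14.5 and 9.98 in control and at 6.64, 8.16, 6.20 and 11.8 in anti-Ly6G, which overlap. Its value of -0.77 (adjusted p = 0.0203) was not called without control 1 (-0.60), anti-Ly6G 1 (-0.69) or anti-Ly6G 3 (-0.66).

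The other falls in the class covered cationic and neutral amino acids, creatine and taurine. Slc7a1, a cationic amino acid importer, stood at 2.27, 2.91, 3.21 and 3.96 RPM in control, 2.45, 2.8, 3.00 and 3.21 in KO and 2.15, 2.08, 1.24 and 1.05 with the antibody. Anti-Ly6G pools lay below the other groups, though pool 1 only just (log2 fold change -0.77 ± 0.20 against control, limma adjusted p = 0.0112). The neutral amino acid importer Slc38a1 (-0.65), the creatine importer Slc6a8 (-0.52) and the taurine importer Slc6a6 (-0.50) fell without overlap of anti-Ly6G and control pools (limma adjusted p from 0.00151 to 0.0138), Slc6a6 being chosen after its values were seen. Slc7a2, the cationic carrier that is abundant in hepatocytes, had -0.36 (adjusted p = 0.0246), which was not called without control 1 (-0.29) or 3 (-0.33) or anti-Ly6G 4 (-0.27). Slc6a13 had -0.28 (adjusted p = 0.0333), not called without control 2 (-0.29), 3 (-0.26) or 4 (-0.29) or anti-Ly6G 1 (-0.24) or 3 (-0.21). Slc43a3 had -0.37 (adjusted p = 0.0264), not called without control 3, anti-Ly6G 3 or anti-Ly6G 4 (-0.33 each). With the mitochondria label as a covariate, a fit that called 8.25% of all genes, only Slc43a2 (-0.89) and Slc43a3 (-0.79) of the 12 were still called.

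Slc7a11, whose window with 2 amino acid response elements is printed above and which was chosen after its values were seen, stood at 2.02, 4.16, 2.55 and 4.82 RPM in control, 3.73, 3.53, 4.20 and 2.97 in KO pools and 2.84, 1.62, 2.10 and 1.45 in anti-Ly6G. Control pools overlapped both other groups, and neither comparison with control was called (log2 fold change 0.14 in KO and -0.60 in anti-Ly6G, limma adjusted p = 0.794 and 0.0687). KO pools lay above anti-Ly6G pools (0.74, limma adjusted p = 0.0341), a call that ended without KO 1 (0.72), 2 (0.74) or 3 (0.67) or anti-Ly6G 2 (0.67) or 4 (0.63) and with KO pools 3 and 4 alone (0.72). The other genes of the amino acid response did not move in 1 direction either. Of 20 listed, 16 were measured, 4 rose in anti-Ly6G (Vldlr 2.20, Fgf21 1.05, Cebpg 0.85, Atf5 0.52), 4 fell (Pck2 -1.01, Trib3 -0.93, Psat1 -0.62, Ppp1r15a -0.59) and the median was -0.02. The summed level of the 16 was 723 to 893 RPM in control, 874 to 999 in KO and 925 to 1108 in anti-Ly6G, above every control pool. Some periportal hepatocyte markers, which include enzymes of amino acid breakdown, fell too, as did some markers of other cells. Of 8 periportal markers measured, 3 fell (Hal, Gls2 and Cps1), 1 rose (Cyp2f2) and 4 did not pass. The periportal sums were 13721 to 18938 RPM in control, 12744 to 14863 in KO and 9663 to 12749 in anti-Ly6G. Beside the macrophage markers given above (5 of 9 lower), 4 of 8 stellate cell and fibroblast markers fell, with sums of 334 to 496 RPM in control pools, 442 to 544 in KO pools and 251 to 396 in anti-Ly6G pools. The 1 measured of 5 T and NK cell markers also fell, as did 2 of 6 endothelial markers and the 2 measured of 4 B cell markers. Of 8 pericentral hepatocyte markers 1 rose and 0 fell, and of 2 measured red cell markers 1 rose and 0 fell. The part of these cells in the fall of the amino acid carriers was not tested.

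Metal and heme carriers went both ways in anti-Ly6G, with 8 of 27 higher (29.6%), 6 lower (22.2%) and a median of 0.11. Over all genes 15.1% were higher and 15.3% lower. Among the rises that held in every fit without 1 pool, the gene with the lowest p was Slc39a9, given above. Slc30a5, which loads zinc into the secretory pathway, stood at 22.6 to 28.4 RPM in control, 24.7 to 26.5 in KO pools and 31.2 to 42.8 in anti-Ly6G (log2 fold change 0.50, limma adjusted p = 0.0025). Slc30a9 of the same family rose by 0.46 (adjusted p = 0.00275). Slc31a1, the copper importer CTR1, stood at 90.3 to 113 RPM in control, 107 to 120 in KO and 126 to 137 with the antibody (0.40, adjusted p = 0.00178). On the falling side, Slc39a11 of the zinc importer family stood at 18.1 to 22 RPM in control, 17.4 to 22.1 in KO pools and 10.5 to 15.5 in anti-Ly6G (-0.62, adjusted p = 0.00171). Slc39a4, the zinc importer ZIP4, stood at 45.8 to 52.3, 47.9 to 79.6 and 28.1 to 39.1 (-0.53, adjusted p = 0.0119). For these 5 genes no anti-Ly6G pool overlapped a control pool. Slc30a1, whose window with a metal response element is printed above, stood at 50.8, 49.5, 45.6 and 37.3 in control, 37.9, 41.9, 33.3 and 36.2 in KO and 26.6, 31.8, 38.7 and 30.1 with the antibody, and fell (-0.52, adjusted p = 0.00594), with anti-Ly6G pool 3 above control pool 4. Of 7 listed genes of metal handling, Mtf1, the transcription factor of the metal response, rose (0.54). The other 6 (Mt1, Mt2, Hamp, Tfrc, Fth1 and Ftl1) did not pass. Slc39a13 had 0.23 (adjusted p = 0.0312), not called without control 1 (0.22), 2 (0.22) or 3 (0.21) or anti-Ly6G 2 (0.20) or 4 (0.21). Slc30a5, Slc30a9, Slc31a1, Slc39a4, Slc30a1 and Slc11a1 were outside the naming rule for this comparison and were chosen after their values were seen.

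Of 14 sugar carriers 6 fell (42.9%, beside 15.3% of all genes), 2 rose (14.3%, beside 15.1%) and 6 did not pass, with a median of -0.33. Slc2a1, the glucose carrier GLUT1 (chromosome 4, 119108711 to 119137983, plus strand), stood at 23.5, 23.2, 18.7 and 20.2 RPM in control, 19.1, 22.1, 19 and 17.7 in KO pools and 11.1, 10.6, 10.2 and 13.7 in anti-Ly6G. Every anti-Ly6G pool lay below every other pool (log2 fold change -0.88 ± 0.11 against control, limma adjusted p = 0.000108). The hepatocyte carrier Slc2a2 stood at 175 to 199 in control, 142 to 159 in KO and 132 to 169 with the antibody, and fell in anti-Ly6G (-0.30, adjusted p = 0.0128). Slc5a3, the sodium-coupled importer of the osmolyte myo-inositol, went the other way, from 2.58, 2.20, 3.15 and 3.04 RPM in control and 2.81, 3.90, 5.03 and 3.87 in KO to 5.25, 5.88, 4.39 and 5.50 in anti-Ly6G (0.83 ± 0.16, adjusted p = 0.00222). Its anti-Ly6G pools lay above control, and the lowest overlapped KO.

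Of the carriers of vitamins, choline, nucleosides and acetyl-CoA, 2 of 14 rose (14.3%) and 4 fell (28.6%), with a median of -0.17. Over all genes 15.1% rose and 15.3% fell. The ascorbate carriers Slc23a1 and Slc23a2 went in opposite directions. Slc23a1 stood at 37.5, 35.7, 35.5 and 29.4 RPM in control, 42.3, 38, 33.4 and 38.2 in KO pools and 56.7, 53.9, 53.9 and 60.4 in anti-Ly6G (log2 fold change 0.70 ± 0.09, limma adjusted p = 0.000137). Slc23a2, chosen after its values were seen, stood at 46.8, 65.8, 40.4 and 45.2 in control, 45.3, 42.4, 47.8 and 42.7 in KO and 28.9, 36.6, 33 and 34.8 with the antibody (-0.55 ± 0.12, adjusted p = 0.00556). In neither did anti-Ly6G pools overlap those of another group. Slc33a1, which brings acetyl-CoA into the endoplasmic reticulum, rose from 23.2 to 26.8 RPM in control to 28.9 to 34.6 in anti-Ly6G (0.37, adjusted p = 0.0043), with 68.5% unique 25-base words.

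Of 5 nucleotide sugar carriers 3 rose (60%, beside 15.1% of all genes), with a median of 0.32. Slc35a3, which carries UDP-N-acetylglucosamine into the Golgi, stood at 43.5 to 49.5 RPM in control and 49.8 to 68.7 in anti-Ly6G (0.32, limma adjusted p = 0.0144), and was not called when scaled to the plain library total (0.28, adjusted p = 0.0517). Slc35a1, the CMP-sialic acid carrier, had 0.25 (adjusted p = 0.0336) and was not called without any 1 of the control pools or anti-Ly6G 1, 2 or 3 (0.20 to 0.26). Slc35a2, the UDP-galactose carrier, had 0.33 (adjusted p = 0.045) and was not called without control 1, 2 or 3 or anti-Ly6G 2, 3 or 4 (0.28 to 0.33), nor with the mitochondria label as a covariate (0.08, adjusted p = 0.827). Among carboxylate and sulfate carriers 2 of 16 rose and 2 fell, with a median of 0.04. These are 12.5% each, near the 15.1% of all genes that rose and the 15.3% that fell. Slc16a12, a monocarboxylate family member that carries creatine, stood at 23.3 to 39.8 in control, 25.6 to 30.8 in KO pools and 38.5 to 50.7 in anti-Ly6G (0.52, adjusted p = 0.0129), with anti-Ly6G pool 1 within the control range. Slc13a3, a carrier of dicarboxylates such as succinate, had 0.57 (adjusted p = 0.0292) and was not called without control 1 (0.51), 3 (0.47) or 4 (0.57) or anti-Ly6G 2 (0.54) or 4 (0.42). Of 16 inorganic ion carriers, Slc20a1 fell and 1 rose (6.25% each, below these shares of all genes), with a median of -0.07. The 1 that rose was the anion exchanger Slc4a2 (0.32, adjusted p = 0.0242), not called without control 1 (0.29), 2 (0.31) or 3 (0.32) or anti-Ly6G 4 (0.24).

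**Figure D4:**
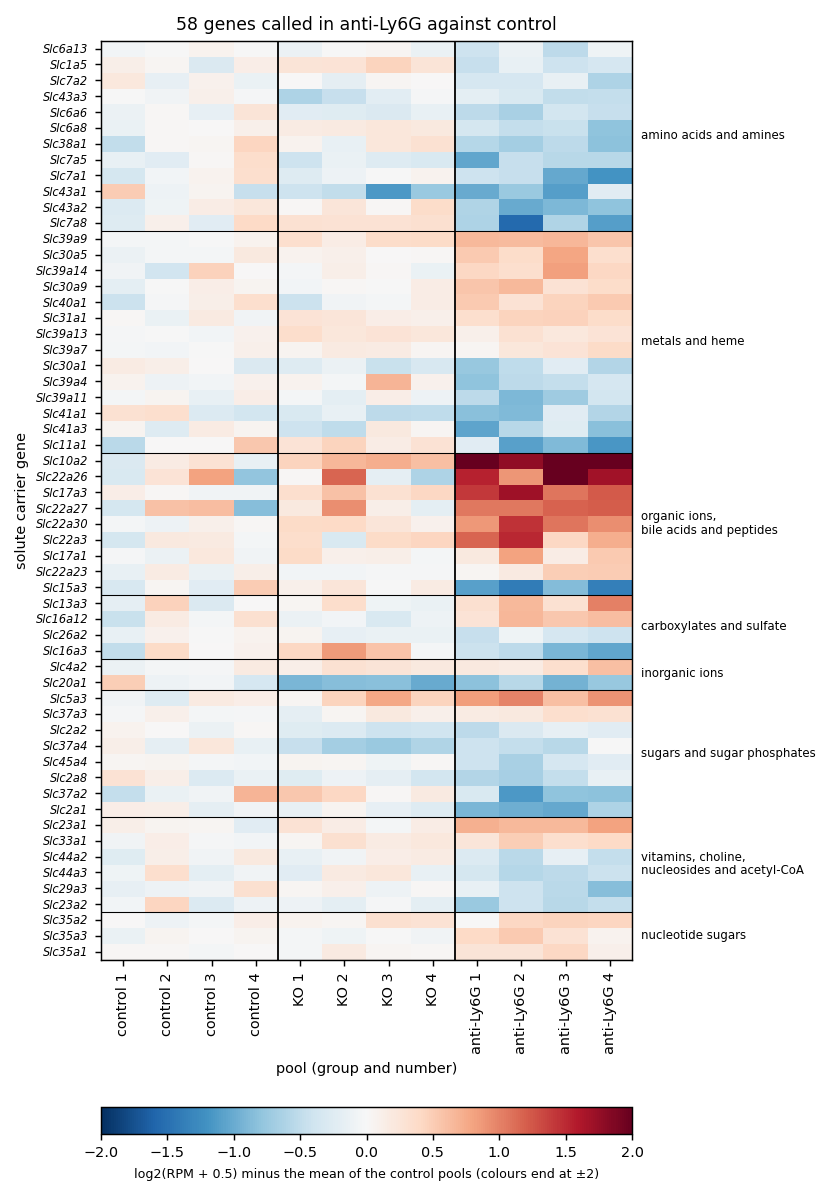
Difference of log2(RPM + 0.5) from the mean of the control pools in each of the 12 pools (columns) for 58 of the genes called in anti-Ly6G against control (rows, by substrate class), with colours ending at ±2. The genes were chosen by this comparison, so the contrast of anti-Ly6G with control columns is given by the choice. Slc20a1 and Slc37a4 were low in all 4 KO pools as well.

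With the mitochondria label as a covariate, calls that held on the higher side included Slc10a2 (2.04), Slc22a26 (2.55), Slc22a27 (1.73), Slc17a3 (1.45), Slc22a30 (1.30), Slc23a1 (0.87), Slc31a1 (0.54) and Slc39a9 (0.49). On the lower side they held for Slc41a3 (-1.24), Slc15a3 (-1.09), Slc39a4 (-0.91), Slc43a2 (-0.89), Slc43a3 (-0.79), Slc39a11 (-0.76) and Slc2a1 (-0.72). The other 43 of the 59 did not pass in this fit, which called 8.25% of all genes. Among the 43 were Slc7a8 (-0.97, limma adjusted p = 0.102), Slc7a1 (-0.98, 0.102), Slc38a1 (-0.96, 0.0633), Slc11a1 (-0.69, 0.263), Slc5a3 (0.46, 0.273) and Slc22a3 (0.57, 0.366).

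KO against anti-Ly6G sets the 2 groups other than control side by side, and it shares its pools with the comparisons above. These groups differ in both the deletion and the antibody. Here 29 members were higher in KO and 22 lower, 51 of 148 (34.5%), beside 26.8% of all genes (13.6% higher and 13.1% lower), with a median of 0.00 over the members and -0.01 over all genes. Scaled to the plain library total, which moved the median of all genes to 0.094, 50 were called with 38 higher, beside 25.7% of all genes. With KO pools 3 and 4 alone, which carry the NZB label that all anti-Ly6G pools carry, 31 were called, beside 17.3% of all genes. Among members whose KO and anti-Ly6G pools did not overlap, those higher in KO by the most were Slc15a3 (1.31), Slc7a8 (1.27), Slc16a3 (1.18), Slc11a1 (1.13) and the macrophage-rich sugar phosphate carrier Slc37a2 (1.05, limma adjusted p from 0.000143 to 0.00425). Slc16a3, the lactate exporter MCT4, stood at 2.20, 3.17, 2.5 and 1.48 RPM in KO and 1.01, 0.912, 0.572 and 0.485 in anti-Ly6G, without overlap. Under the same limit, those lower in KO by the most were Slc10a2 (-1.54), Slc17a3 (-0.94), Slc22a27 (-0.87), Slc22a30 (-0.80) and Slc16a12 (-0.67). Slc22a27 (adjusted p = 0.046) was not called without KO 1, 3 or 4 or any 1 anti-Ly6G pool (-0.72 to -0.89). Among NZB-labelled pools alone Slc15a3 (1.26), Slc7a8 (1.27), Slc16a3 (0.99), Slc11a1 (1.05), Slc10a2 (-1.49), Slc17a3 (-0.99), Slc22a27 (-1.16), Slc22a30 (-0.91) and Slc16a12 (-0.73) were still called, and Slc37a2 (0.87, adjusted p = 0.0544) was not.

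By class, 10 of 30 amino acid and amine carriers were higher in KO than in anti-Ly6G and 0 lower, 1 of 26 organic ion, bile acid and peptide carriers was higher and 10 lower, and 7 of 14 carriers of vitamins, choline, nucleosides and acetyl-CoA were higher and 2 lower. In the metal class 5 of 27 were higher and 5 lower. Over all genes 13.6% were higher and 13.1% lower in this comparison. Macrophage and Kupffer cell markers were higher in KO for 6 of 9 measured, and their part in these counts was not tested. Over the 3 comparisons, 73 of the 148 members were called at least once and 75 never. The same count was not made for all genes, so it does not set the members apart. Of all genes, 1.12% were called in KO against control, 30.4% in anti-Ly6G against control and 26.8% in KO against anti-Ly6G.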

How the data were processed

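For 12 liver libraries the authors deposited 1 normalized signal value per gene. Per the submitters' processing notes, Bowtie2 2.0.6, RSEM 1.2.3, cutadapt 1.2.1 and edgeR were used with the build GRCm38, without their roles. Annotation and use of strand: not given in the sources used here. Divided by what 1 read is worth in its library, each deposited value came out whole within 0.01, and TMM factors recomputed from these reads gave the scaling back, so the signal was read as RPM. Coordinates, exon lengths and the uniqueness of 25-base words came from GENCODE vM21, where all 148 members were found (147 under the same symbol), 24 of them with under 90% unique words.

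Tests were limma-trend fits (limma 3.58.1, R 4.3.3) on log2(signal + 0.5), with all 12 libraries in 1 fit over all 11791 genes, group as the only term, and Benjamini-Hochberg adjustment at 0.05. A mean of at least 1 RPM in at least 1 group was required, which removed 0 genes, so the fit with no filter is the same one. Fits were tested on simulated data. Alternatives were pseudocounts of 0.1 and 1, a mean of at least 5, the plain library total, quantile normalization, only the groups compared, the replicate number as a block, the mitochondria label, edgeR 4.0.16 and DESeq2 1.42.0 on the recovered reads, and each library left out. The members and lists were chosen with earlier results of these data known. Named genes were the called members with the largest changes whose pools did not overlap (8 in each direction against control, 5 in KO against anti-Ly6G), the 2 of lowest p per class against control, those called in both comparisons with control, and the 8 highest per kilobase; 1 member, included in all counts, is not reported here by name. The levels given for 3 reads cover counting error only, while SD and SE cover the spread between pools.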

Additional observations from a re-analysis of the deposited data

Results flagged for a closer look

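A pool far from the other 3 of its group, by Dixon's criterion, was found in 5 of 138 groups of 4 pools (the named genes in each group), and chance alone flags about 1 group in 20. The folate carrier Slc19a1 stood at 19.5 RPM in anti-Ly6G pool 4 and at 9.92 to 10.4 in the other anti-Ly6G pools. The nucleoside carrier Slc29a1 was also highest in anti-Ly6G pool 4, at 148 RPM against 127 to 129. The UDP-galactose carrier Slc35a2 was lowest in anti-Ly6G pool 1, at 8.28 RPM against 11.1 to 11.4. In KO pool 2 the organic cation carrier Slc22a3 stood at 3.80 RPM against 6.28 to 6.65, and the cationic amino acid carrier Slc7a2 at 765 RPM against 875 to 888.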

How the results depend on the processing

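Brackets hold the share of all genes called under the same setting. In KO against control 3 members were called (1.12%), 5 by DESeq2 (4.89%) and 1 with the C57-labelled KO pools alone (0.492%), Slc43a3, none of the 3. With each pool left out in turn 0 to 3 were called (0.0254 to 2.71%). In anti-Ly6G against control 59 were called (30.4%), 19 with the mitochondria label as a covariate (8.25%), and 44 to 56 with each pool left out (23.7 to 30.9%). In KO against anti-Ly6G 51 were called (26.8%), 31 with the NZB-labelled KO pools alone (17.3%), and 36 to 47 with each pool left out (20.1 to 27.7%). The cause of these shifts was not tested, and fits on fewer pools have fewer samples. Pools with the same replicate number did not deviate together (correlations from -0.209 to 0.172), so the numbers are not taken to pair them. With the replicate block the counts were 1, 58 and 50 in these comparisons, beside 0.17, 29.2 and 25.3% of all genes. For the named genes 876 values kept their direction and side of the threshold, 76 lost the call, 5 gained it and 0 reversed. Low carriers such as Slc7a5 and Slc16a3, near 1 RPM, rest on few reads.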
